A study of Mus musculus with 4 samples.

Results

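The genes Grem1, Sfrp1, Rspo3, Rspo1, Bmp4, Bmp5, Wnt5a, Wnt2b, Pdgfra and Cd34 were followed through a single-cell data set of the mouse small intestine. They are 10 of the 21027 genes found in both deposited count tables, they were chosen by name as stromal WNT and BMP niche factors or as surface markers of the cells that make them, and all 10 had counts. The cells came from a sort labelled as group 3 innate lymphoid cells (ILC3s) of the small intestinal lamina propria, and the genes are described in the stromal cells found in it. There were 4 samples, which are 2 replicates with 2 sequencing libraries each, and the libraries of a replicate share 1 count table and 1 sample tag.

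All samples belong to 1 group, Cxxc1flox/flox mice with a Cre driver, 6 to 8 weeks old. Cxxc1, which codes for a CpG-binding protein of a histone methyltransferase complex, is floxed in these mice, and the samples are labelled as Cxxc1-deficient ILC3s. Every stromal cell described here comes from this genotype, and cells of Cxxc1-sufficient mice were not analysed here. All comparisons are therefore between classes of cells within each replicate. Nothing in the labels ties the replicates to separate animals. The p-values therefore measure how far a class difference varied between these 2 samples, which may be technical. The test also moderates the variance of each gene by those of all genes.

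In the intestine, fibroblasts around the crypts set the WNT and BMP signals that the epithelium receives. WNT ligands act through Frizzled receptors and LRP co-receptors, R-spondins strengthen that signal through LGR receptors and the ubiquitin ligases RNF43 and ZNRF3, and secreted Frizzled-related proteins bind WNT ligands. BMP ligands favour differentiation towards the villus, and secreted antagonists such as the product of Grem1 hold them off near the crypt base, where the stem cells lie.

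Grem1 and the BMP ligands Bmp4 and Bmp5 are set against each other in the comparison of cells with and without Grem1, so the 250 bases before the start of each gene are printed, from RefSeq with build GRCm38.p6, 5′ to 3′ on the gene's own strand. The windows are chr2:113758649-113758898 on the minus strand for Grem1, chr14:46390670-46390919 on the minus strand for Bmp4 and chr9:75775115-75775364 on the plus strand for Bmp5. Capitals mark matches, on either strand, to the TCF/LEF core CTTTGA, the GLI core CCACCCA, the SMAD GC element GGCGCC or the TATA box TATAAA.
Grem1: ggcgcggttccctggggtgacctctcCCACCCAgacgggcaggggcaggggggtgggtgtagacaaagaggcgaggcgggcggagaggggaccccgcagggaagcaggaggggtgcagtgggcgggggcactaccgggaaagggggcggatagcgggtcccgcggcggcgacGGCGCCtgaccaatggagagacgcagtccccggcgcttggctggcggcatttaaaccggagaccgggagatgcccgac
Bmp4: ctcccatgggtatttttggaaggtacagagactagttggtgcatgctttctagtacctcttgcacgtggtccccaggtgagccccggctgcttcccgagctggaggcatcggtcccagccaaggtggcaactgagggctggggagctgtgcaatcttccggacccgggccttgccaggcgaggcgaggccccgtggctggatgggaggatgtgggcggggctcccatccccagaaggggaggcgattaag
Bmp5: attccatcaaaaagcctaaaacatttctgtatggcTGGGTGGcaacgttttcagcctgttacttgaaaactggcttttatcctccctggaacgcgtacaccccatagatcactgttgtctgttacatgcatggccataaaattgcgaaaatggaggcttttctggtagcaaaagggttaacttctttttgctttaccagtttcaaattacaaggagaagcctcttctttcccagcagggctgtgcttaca
The Grem1 window held 1 GLI core and 1 SMAD GC element, which do not overlap. The Bmp5 window held 1 GLI core on the opposite strand, and the Bmp4 window held none of the 4 motifs. G and C made up 72.0% of the Grem1 window, 63.2% of the Bmp4 window and 42.8% of the Bmp5 window, against a median of 52.4% over 32851 windows of the same length. Windows were found for 7 of the 10 genes (these 3 with Cd34, Pdgfra, Rspo1 and Wnt2b). The GLI core was in 2 of these 7 and in 8.11% of all windows, and the SMAD GC element was in 3 of the 7 (Grem1, Rspo1 and Wnt2b) and in 9.59% of all windows. The TCF/LEF core and the TATA box were in 0 of the 7, against 13.8% and 12.4% of all windows. These are matches of letters and not measured binding sites.

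The tagged cells numbered 2077 in replicate 1 and 4532 in replicate 2, with 11939862 and 12141164 unique molecules (UMIs) and medians of 4027 and 2269 UMIs a cell. After cells with under 300 genes or over 25% mitochondrial UMIs were left out, 1945 and 4185 cells remained. A cell was called stromal where Col1a1, Col1a2, Col3a1 and Dcn together had at least 10 UMIs. This took 414 cells of replicate 1 (21.3%, exact binomial 95% interval 19.5 to 23.2) and 294 of replicate 2 (7.03%, 6.27 to 7.84). Just outside this threshold 33 and 0 cells had 9 such UMIs, and just inside it 18 and 8 cells had 10. The stromal cells were divided at 3 UMIs of C3, Ogn, Ackr4, Grem1 and Col14a1 together into a split-high class of 343 and 263 cells and a split-low class of 71 and 31 cells. Near that threshold 13 and 10 cells had 2 such UMIs, and 6 and 10 cells had 3. Intervals and detection limits cover counting error only. Of the cell numbers, 7 occur in both captures.

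The split-high cells carried fibroblast markers at high levels, and the split-low cells far less of them. The 11 listed fibroblast markers, the 4 of the gate included, summed to 74399.7 and 69519.6 CPM (UMIs scaled to a class total of 1000000) in split-high cells, to 3558 and 9794 CPM in split-low cells and to 850.2 and 972 CPM in other cells. Of the 7 listed genes outside the gate, 6 had a positive log2 difference between split-high and split-low cells. Thy1 was lower in split-high cells (-1.59, edgeR adjusted p = 0.0331, 0.0579 in DESeq2, tested as below). The gate genes had a median of 515 and 361 UMIs in a split-high cell. In split-low cells those medians were 12 and 16 UMIs, close to the threshold of 10. Markers of other cell types were unevenly spread over the classes. Of the split-low cells, 55 of 71 and 22 of 31 carried at least 2 UMIs of immune genes such as Ptprc, Cd3d, Cd3e, Cd3g and Il23r or of the plasma cell genes Mzb1 and Derl3, against 43 of 343 and 116 of 263 split-high cells. The 12 immune markers summed to 573 and 2772 CPM in split-low cells and to 157 and 876 CPM in split-high cells. The 5 plasma cell markers, which include immunoglobulin genes, summed to 339407 and 848 CPM in split-low cells and to 21989.7 and 5646 CPM in split-high cells. Of the 10 markers of subepithelial telocytes or myofibroblasts, 7 and 8 were detected in split-high cells, at a summed 188 and 202 CPM against 18.0 and 192 CPM in split-low cells, and the defining gene Foxl1 was at 0 in both classes. Of the 10 endothelial markers, 7 and 6 were detected, at 58.2 and 75.6 CPM against 34.1 and 91.2 CPM, and Cdh5, Kdr and Cldn5 were at 0 in both classes. The 10 mural markers summed to 1623 and 1110.1 CPM in split-high cells and to 424 and 310.1 CPM in split-low cells. In split-high cells most of this was Rgs5, with a UMI in 300 and 209 of the cells. The 6 epithelial markers summed to 3.68 and 1.04 CPM in split-high cells, to 55.7 and 9.12 CPM in split-low cells and to 88.9 and 31.8 CPM in other cells. The 10 markers of trophocytes or adventitial fibroblasts were all detected in split-high cells, at a summed 7140.0 and 6480.3 CPM. In split-low cells they summed to 810 and 1459 CPM and in other cells to 691 and 677 CPM. Against split-low cells 9 of the 10 had a positive log2 difference, with Cd81 at only 0.02. Dpp4 was lower in split-high cells (-2.85, edgeR adjusted p = 0.0472, 0.158 in DESeq2, tested as below).

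All 10 genes were higher in stromal cells than in the other cells of the same replicate. The gate used none of them. The sums of 414 and 294 stromal cells were set against those of 1531 and 3891 other cells with edgeR's quasi-likelihood test, with the replicate as a block, and Benjamini-Hochberg adjustment over the 12578 genes tested. Of all genes tested, 23.4% were higher and 18.0% lower in stromal cells. The median log2 fold change of the 10 genes was 6.99 (6.87 with Rspo1, which had 0 UMIs in other cells, at its lower bound), against -0.03 over all genes. Each of the 10 kept its call under the 5 alternatives tried, among them DESeq2, which called 18.9% of all genes higher and 12.4% lower.

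Grem1, the BMP antagonist (chromosome 2, 113746164 to 113758646, minus strand, GRCm38), stood at 1671 CPM (exact Poisson 95% interval 1625 to 1718) in split-high cells of replicate 1 and at 2370.4 CPM (2302 to 2440.1) in those of replicate 2. In split-low cells it stood at 16.2 and 18.2 CPM, from 9 and 2 UMIs with no cell above 1 UMI. Grem1 is one of the genes of that split, so this difference is a description. In the 6 classes gated from the other cells it ranged from 2.35 to 14.6 CPM, and stromal cells together exceeded other cells by 8.05 (log2, SE 0.48, adjusted p = 6.23e-04). Within the split-high class Grem1 was spread unevenly: 281 of 343 cells (81.9%) and 219 of 263 (83.3%) had a UMI, and single cells reached 151 and 145 UMIs.

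Of the 10 genes, 3 modulate WNT signalling outside the cell. Sfrp1, a secreted Frizzled-related protein (chromosome 8, 23411502 to 23449632, plus strand), stood at 4637 and 3122 CPM in split-high cells, and had a UMI in 335 of 343 (97.7%) and 253 of 263 (96.2%) of them. It stood at 251 and 748 CPM in split-low cells and at no more than 64.4 CPM in any class of other cells. Stromal cells exceeded other cells by 7.31 (SE 0.52, adjusted p = 8.34e-04). Rspo3, an R-spondin (chromosome 10, 29452416 to 29535867, minus strand), stood at 102 and 103 CPM in split-high cells, values closer to each other than their counting intervals are wide (90.9 to 114 and 88.8 to 118). Of those cells, 151 (44.0%) and 98 (37.3%) had a Rspo3 UMI. Its level in endothelial-gated cells of replicate 1 was 9.70 CPM from 4 UMIs, the highest among the classes of other cells, and the stromal difference was 7.09 (SE 0.51, adjusted p = 8.58e-04). Rspo1, another R-spondin (chromosome 4, 124986430 to 125009099, plus strand), was near the limit of detection, with 15 and 14 UMIs in split-high cells, or 5.02 and 7.25 CPM. It had 0 UMIs in split-low cells and in other cells, so stromal cells were at least 31.1-fold higher than the limit of 3 counts over all other cells allows. Its call (adjusted p = 0.00736) rests on the stromal counts alone.

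The BMP ligands differed in how many stromal cells held them. Bmp4 (chromosome 14, 46383520 to 46390669, minus strand) stood at 467 and 515 CPM in split-high cells and was found in 299 (87.2%) and 229 (87.1%) of them. It was at 62.9 and 255 CPM in split-low cells and at most at 13.9 CPM in the other classes. Bmp5 (chromosome 9, 75775364 to 75900310, plus strand) was found in 38 (11.1%) and 28 (10.6%) split-high cells and stood at 19.4 and 22.8 CPM there. In split-low cells it had 8 UMIs in replicate 1, 5 of them in 1 cell, and 0 UMIs in replicate 2. Both ligands were higher in stromal than in other cells, Bmp4 by 6.84 (SE 0.50, adjusted p = 8.86e-04) and Bmp5 by 6.54 (SE 0.44, adjusted p = 7.35e-04).

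The WNT ligands were sparse. Wnt5a, which acts mostly through beta-catenin-independent signalling (chromosome 14, 28504750 to 28527448, plus strand), had 72 and 36 UMIs in split-high cells, or 24.1 and 18.6 CPM, in 49 of 343 and 29 of 263 cells. Wnt2b, an activator of beta-catenin signalling (chromosome 3, 104945272 to 104961921, minus strand), had 130 and 65 UMIs, or 43.5 and 33.7 CPM, in 28.9% and 20.2% of cells. Wnt5a had 0 UMIs in split-low cells of both replicates, and Wnt2b had 5 and 0. Both were higher in stromal than in other cells, Wnt5a by 6.17 (SE 0.50, adjusted p = 0.00111) and Wnt2b by 6.37 (SE 0.37, adjusted p = 6.09e-04).

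The surface genes marked most split-high cells. Pdgfra, the PDGF receptor alpha (chromosome 5, 75152292 to 75198215, plus strand), stood at 444 and 371 CPM and was found in 292 (85.1%) and 200 (76.0%) of these cells. Cd34, a sialomucin of stromal, endothelial and progenitor cells (chromosome 1, 194938819 to 194961279, plus strand), stood at 1224 and 921 CPM and was found in 315 (91.8%) and 219 (83.3%). Cd34 also had 121 CPM from 50 UMIs in endothelial-gated cells of replicate 1 but 9.37 CPM from 3 UMIs in those of replicate 2. Pdgfra did not exceed 9.01 CPM in any class of other cells. The stromal differences were 7.13 (SE 0.33, adjusted p = 5.8e-04) for Pdgfra and 6.90 (SE 0.59, adjusted p = 0.00128) for Cd34.

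**Figure D1:**
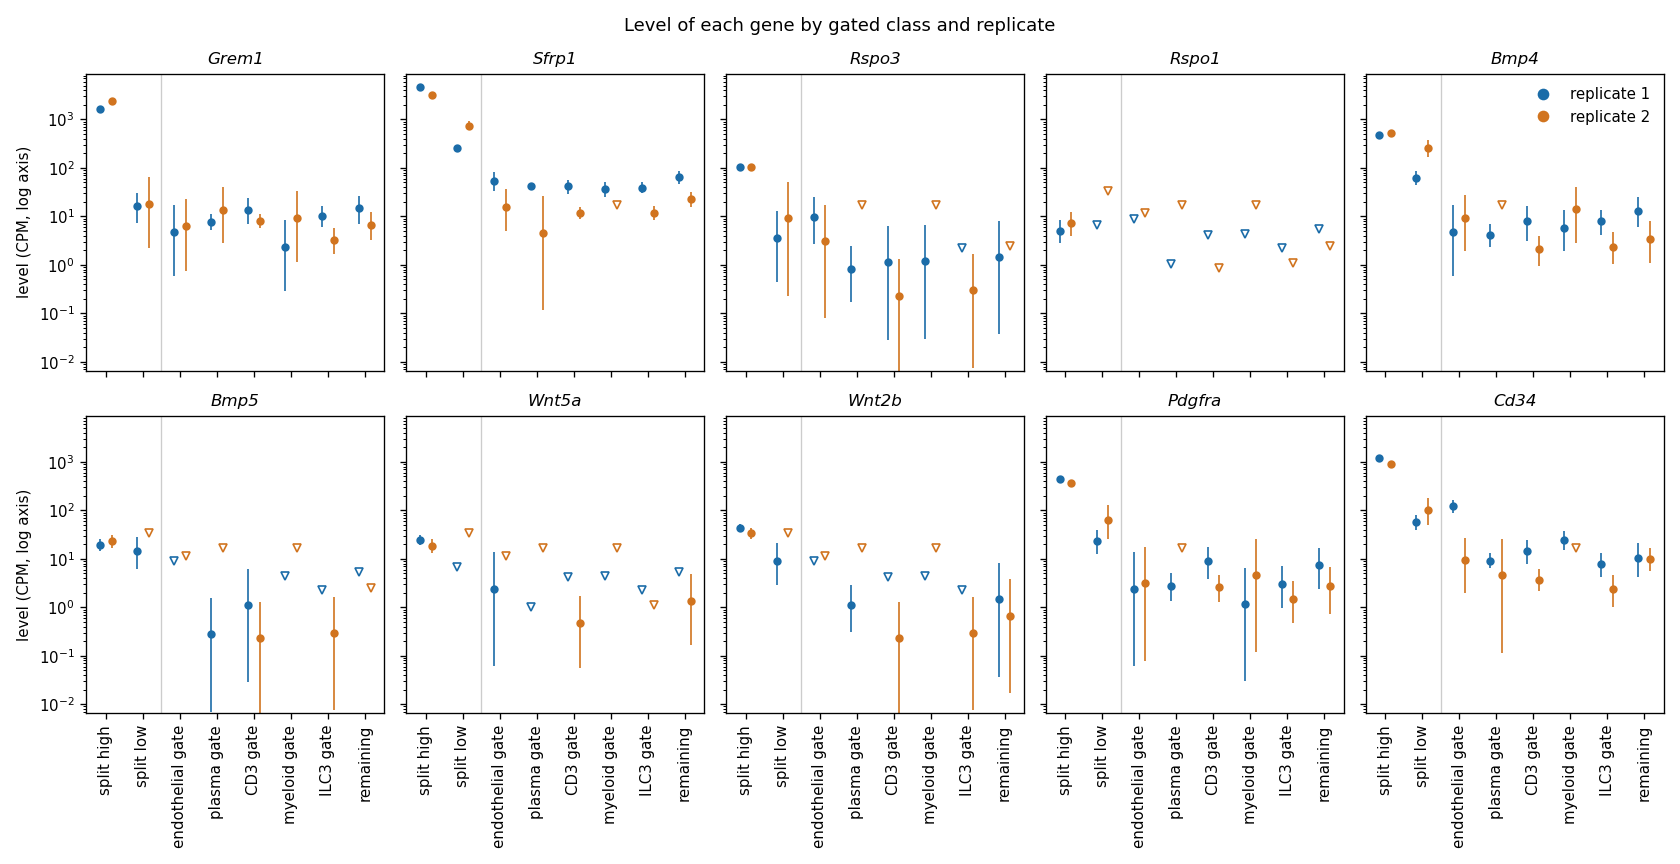
Level of each gene in CPM (log axis) in the split-high and split-low stromal classes and in 6 classes gated from the other cells, 1 point per replicate with its exact Poisson 95% interval, and an open triangle at the interval's upper end where a class has 0 UMIs. For every gene the split-high levels are above the measured levels of all classes of other cells in both replicates, as for Grem1 at 1671 and 2370.4 CPM against 14.6 CPM or less.

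Detection was compared at a single depth by thinning every cell to 2000 UMIs, which left 331 and 248 split-high, 64 and 21 split-low and 1387 and 2440 other cells. In split-high cells Sfrp1 was found in 96.1% and 93.5%, Cd34 in 80.4% and 69.8%, Grem1 in 70.7% and 76.2%, Pdgfra in 55.3% and 49.6% and Bmp4 in 49.5% and 60.9%. The remaining genes were found in fewer cells at this depth: Rspo3 in 17.8% and 13.3%, Wnt2b in 7.25% and 8.06%, Wnt5a in 6.34% and 2.02%, Bmp5 in 4.53% and 2.42% and Rspo1 in 1.21% and 2.02%. In other cells Sfrp1 was found in 8.22% and 2.34%, Cd34 in 3.03% and 0.697% and Grem1 in 1.95% and 0.861%. The source of these UMIs was not tested. In split-low cells Grem1 was found in 4 of 64 (6.25%) and 1 of 21 (4.76%), a share that the split limits, since Grem1 is one of its genes. A split-high cell held a median of 4 of the 10 genes at this depth in both replicates, and 31.4% and 33.1% held at least 5. Before thinning the medians were 6 and 5 in split-high cells, 1 and 1 in split-low cells and 0 and 0 in other cells.

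**Figure D2:**
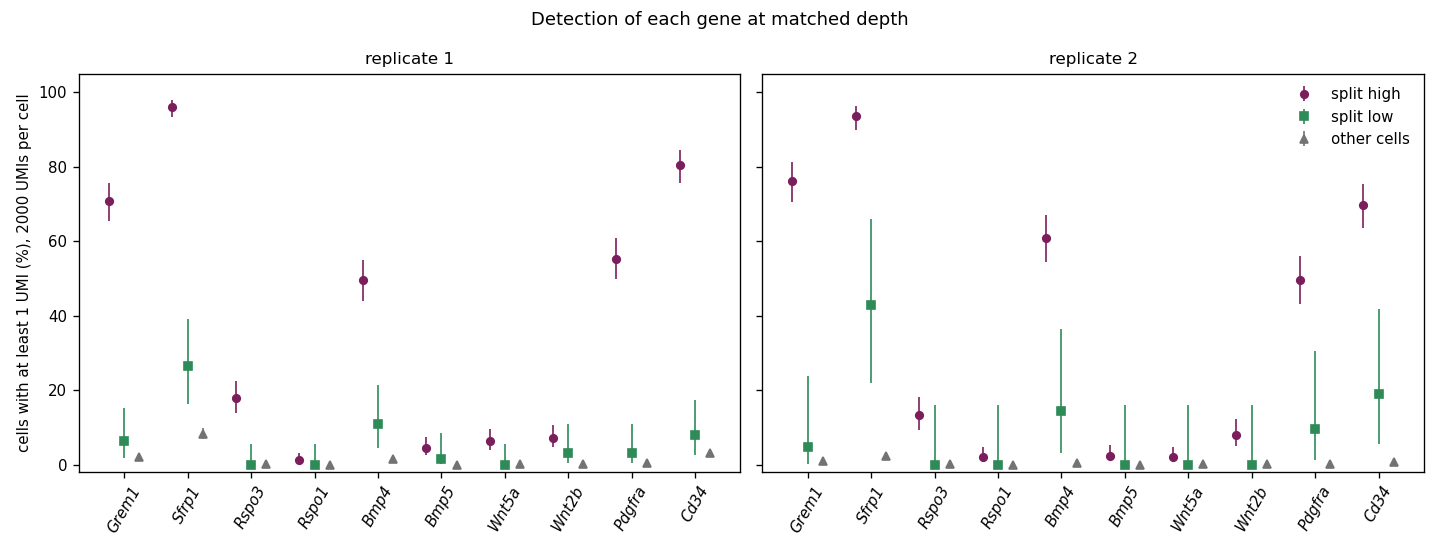
Share of cells (percent) with at least 1 UMI of each gene after thinning to 2000 UMIs a cell, for split-high, split-low and other cells, with exact binomial 95% intervals, 1 panel per replicate. Sfrp1 is found in nearly all split-high cells (96.1% and 93.5%), Rspo1 in very few (1.21% and 2.02%), and other cells stay at 8.22% or less for every gene.

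Between the split-high and split-low classes, 6 of the 8 genes that could be tested were higher in split-high cells. The number lower was 0, also at an unadjusted p under 0.05. Of the split-low cells, 55 of 71 and 22 of 31 carried immune or plasma UMIs, so this is not a contrast of stromal cells alone. Without cells carrying such UMIs only the Cd34 and Sfrp1 calls stayed, as given below. Grem1 defined the split and Rspo1 had too few counts. Of 9475 genes tested, 7.16% were higher and 2.96% lower (edgeR as before), and the median log2 fold change of the 8 genes was 3.33 (2.80 with Wnt5a at its lower bound) against 0.04 for all genes. Cd34 was higher by 3.86 (log2, SE 0.49, adjusted p = 0.00188) and Pdgfra by 3.48 (SE 0.51, adjusted p = 0.00277). Sfrp1 was higher by 3.17 (SE 0.57, adjusted p = 0.00707) and Bmp4 by 1.99 (SE 0.47, adjusted p = 0.0215). Rspo3 had 503 UMIs in split-high against 3 in split-low cells, a ratio of 22.7 with a counting interval of 7.73 to 111 (adjusted p = 0.00362). Wnt5a, at 0 UMIs in split-low cells, was at least 4.88-fold higher in split-high cells against a limit of 3 counts over the group. It was tested only through its split-high counts, DESeq2 gave it no adjusted p and its call was lost with no replicate block, with a gate of 20 UMIs and without cells with immune or plasma UMIs, so its call (edgeR adjusted p = 0.0352) is a description. Wnt2b differed by 2.44 (SE 0.82, adjusted p = 0.0843) and Bmp5 by 0.82 (SE 0.84, adjusted p = 0.628), and neither passed the test. The replicates differed in size for Bmp4, at 2.87 in replicate 1 and 0.99 in replicate 2, and for Sfrp1, at 4.20 and 2.05.

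The split-low class was different once cells with immune or plasma cell UMIs were left out. In that alternative, chosen after seeing the data, 300 and 147 split-high and 16 and 9 split-low cells remained, and 132 of 6147 genes were called. Cd34 (2.34, adjusted p = 9.59e-04) and Sfrp1 (1.67, adjusted p = 0.0242) still passed, and the other 4 did not. The gate genes had medians of 21.5 and 24 UMIs in these split-low cells, against 566 and 337 in these split-high cells. Median depths were 2290.5 and 1783 against 8470 and 5867 UMIs. The fibroblast list summed to 19547 and 12511 CPM in these split-low cells. The part of these differences in the calls was not tested. Bmp4 stood at 655 and 603 CPM in the split-low cells that remained, against 497 and 620.2 CPM in split-high cells, and its difference was -0.06 (adjusted p = 0.999). Pdgfra stood at 205 and 131 CPM against 484 and 415 CPM, with a difference of 1.54 (adjusted p = 0.154). Rspo3 was left with 1 and 0 UMIs in the split-low cells (3.36, adjusted p = 0.163). Bmp5 stood at 143 and 0 CPM against 21.8 and 30.5 CPM (-1.44, adjusted p = 0.703). Grem1 had 0 UMIs in the 16 cells and 1 UMI in the 9 cells. Other markers were not absent from these split-low cells. The plasma list summed to 188612 CPM in the 16 cells and to 1809.8 CPM in the 9, the mural list to 3479.5 and 551 CPM, and the telocyte list to 205 and 419.7 CPM with Foxl1 at 0. The part of this RNA in the values of Bmp4, Bmp5 and the other genes was not tested. With a stromal gate of 20 UMIs in place of 10, 3 of the 8 genes were higher and 126 genes were called. With DESeq2, which called 4.52% of genes higher and 1.6% lower, 5 of the 8 were higher.

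Other genes of the same pathways were counted from lists chosen with earlier results of these data known. The counts cover only listed genes that passed the filter on low counts, many of them through the class where they are high, so they describe these genes and support nothing about a list. Against other cells, where 23.4% of all genes tested were higher and 18.0% lower, the stromal cells were higher for 6 of 6 tested WNT ligands (19 were listed), 6 of 6 WNT antagonists, 18 of 20 WNT receptors and targets, 6 of 6 BMP ligands, 8 of 9 BMP antagonists, 10 of 14 BMP receptors and targets and 4 of 4 PDGF ligands and receptors. Of 7 R-spondins and their receptors, 3 were higher and 2 lower. In split-high against split-low cells, where 7.16% of all genes tested were higher and 2.96% lower, the counts were 1 of 4 WNT ligands, 3 of 5 WNT antagonists, 9 of 17 WNT receptors and targets, 4 of 6 BMP ligands, 3 of 6 BMP antagonists, 4 of 13 BMP receptors and targets and 2 of 4 PDGF genes, with 0 lower in any of these 7 lists. DESeq2 called fewer in most of them, at 0 of 4, 2 of 5, 5 of 17, 2 of 6, 3 of 6, 3 of 13 and 1 of 4. Of 4 R-spondins and receptors, Rspo3 was higher and Znrf3, a ligase that removes Frizzled receptors, was lower (-3.06, adjusted p = 0.0254, but 0.121 in DESeq2). Znrf3 was also lower in stromal than in other cells. Epcam, the only 1 of the 6 epithelial markers that was tested, was lower in split-high cells too (-4.15, edgeR adjusted p = 0.0106). In split-low cells it had 28 and 1 UMIs, against 2 and 0 for Krt18 and 1 and 0 for Krt8. Krt20, Fabp1 and Vil1 had 0 UMIs there in both replicates. The part of epithelial RNA in the Znrf3 value was not tested. The list medians lay between 0.87 for the R-spondin list and 2.44 for the WNT ligands (genes at 0 at their lower bound), against 0.04 for all genes. On the immune list 4 of 11 tested genes were lower in split-high cells and on the plasma list 2 of 5, and the part of these cells in the result was tested only by leaving them out, as above.

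Among the WNT genes, Dkk2, which codes for a secreted antagonist of the LRP co-receptors, stood at 110.5 and 74.1 CPM in split-high cells and had 0 UMIs in split-low cells, so it was tested only through its split-high counts. The ratio was at least 21.4-fold against a limit of 3 counts over the group, and DESeq2 did not call it (adjusted p = 0.429). Fzd1, a Frizzled receptor, stood at 296 and 222 CPM against 12.6 and 9.12 CPM (4.41, adjusted p = 0.00188). Lrp6, a WNT co-receptor, was higher by 2.62 (adjusted p = 0.00834). Among the BMP genes, the ligand Bmp2 was higher by 3.15 (adjusted p = 0.00814), the receptor Bmpr1a by 3.54 (adjusted p = 0.0057) and Id3, a transcriptional target of BMP signalling, by 2.85 (adjusted p = 0.00409).

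The genes were then compared between stromal cells with and without Grem1, a comparison chosen after seeing the data. Cells were thinned to 2000 UMIs to call Grem1 as present or not, cells with immune or plasma UMIs or with fewer than 2000 UMIs were left out, and the full counts were summed. This gave 211 and 104 cells with Grem1 and 89 and 37 without, with median depths of 9022 and 6314 against 6948 and 5408 UMIs. Grem1 in the full counts was 2301 and 3154 CPM against 195 and 174 CPM, so the cells without a call were low and not at 0. Of the 8 other genes that could be tested, Rspo3 was higher and Bmp5 lower in cells with Grem1, where 0.988% of 7186 genes tested were higher and 0.654% lower (edgeR with the replicate as a block).

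Rspo3 stood at 123 CPM (108 to 139.6) with Grem1 and 63.6 CPM (45.6 to 86.3) without in replicate 1, and at 129 CPM (103 to 159) and 30.5 CPM (12.3 to 62.8) in replicate 2. The difference was 1.37 (SE 0.30, adjusted p = 0.0202). Bmp5 ran the other way, at 14.9 CPM (9.99 to 21.4) with Grem1 and 52.7 CPM (36.5 to 73.7) without in replicate 1, and at 11.9 CPM (5.12 to 23.4) and 78.4 CPM (46.4 to 124) in replicate 2. Its difference was -2.02 (SE 0.39, adjusted p = 0.00968), and the intervals of both genes cover counting error only. Both values rest on few UMIs, 41 and 7 for Rspo3 in cells without Grem1, and 29 and 8 for Bmp5 in cells with it. The calls depended on the fit. Without the replicate block 0 of 7186 genes passed (481 at an unadjusted p under 0.05), and DESeq2 called 18 genes (0.0974% higher and 0.153% lower), did not call Rspo3 and gave Bmp5 no adjusted p. Each call was also lost with a stromal gate of 20 UMIs, the Rspo3 call without Scrublet doublets, and the Bmp5 call with all stromal cells included. Few cells changed in the first 2 of these. The gate of 20 kept 211 and 103 cells with Grem1 and 82 and 35 without. Leaving out Scrublet doublets kept 211 and 104 with Grem1 and 88 and 37 without. Over the 8 alternatives the differences ranged from 1.35 to 2.27 for Rspo3 and from -2.11 to -1.78 for Bmp5.

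The other 6 tested genes did not pass. Bmp4 stood at 457 and 575 CPM with Grem1 against 622 and 727 CPM without, lower by both replicates' levels (-0.27, SE 0.21, adjusted p = 0.828). Cd34 stood at 1301 against 1388 CPM in replicate 1 but at 1326 against 492 CPM in replicate 2 (0.75, SE 0.30, adjusted p = 0.368). Pdgfra showed the same disagreement, at 467 against 518 CPM and at 455 against 269.9 CPM (0.38, SE 0.25, adjusted p = 0.771). Sfrp1 stood at 5093 against 4714 CPM and at 3606 against 3352 CPM (0.24, SE 0.19, adjusted p = 0.832). Wnt2b (0.33, SE 0.36, adjusted p = 0.898) and Wnt5a (0.69, SE 0.57, adjusted p = 0.836) had 92 UMIs or fewer in each of these sums. A p above the threshold does not show that these levels were alike. Rspo1 was not tested, with 17 UMIs in cells with Grem1 and 3 in cells without.

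**Figure D3:**
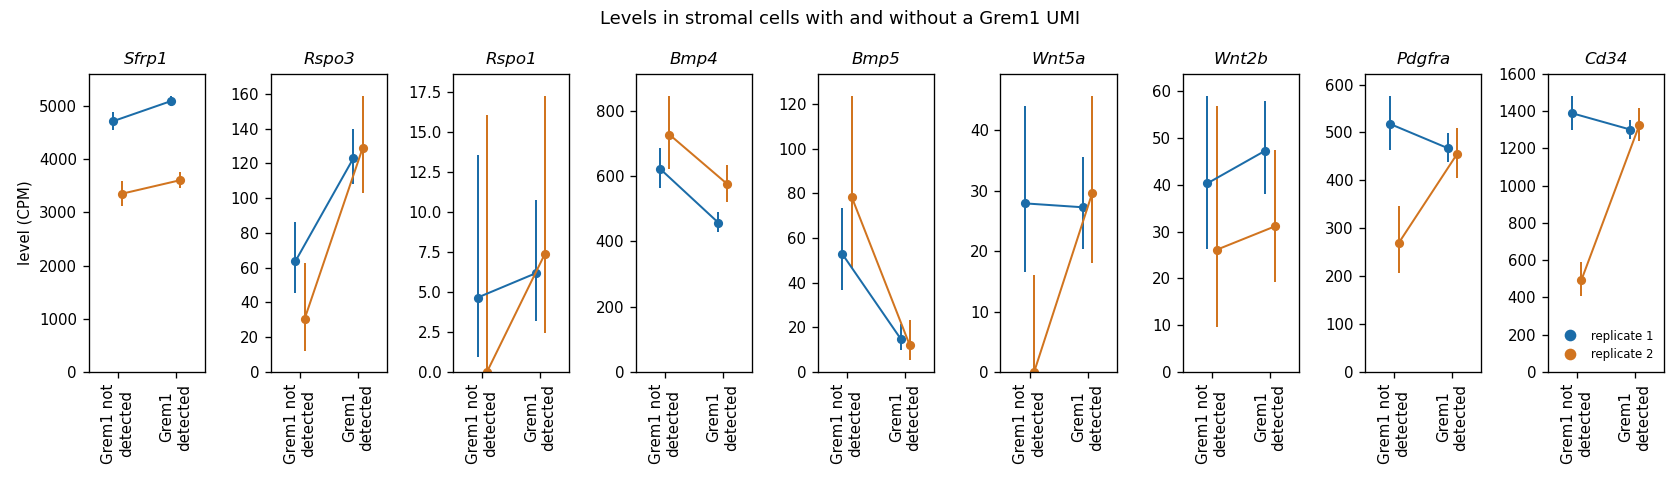
Level (CPM, linear axis from 0) of the 9 other genes in stromal cells without and with a Grem1 UMI at 2000 UMIs a cell, 1 line per replicate with exact Poisson 95% intervals. Bmp5 falls from 52.7 and 78.4 to 14.9 and 11.9 CPM and Rspo3 rises from 63.6 and 30.5 to 123 and 129 CPM, while Cd34 and Pdgfra differ in direction between the 2 replicates.

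Among the listed pathway genes, again those that passed the filter on low counts, and beside 0.988% higher and 0.654% lower over all genes, cells with Grem1 were higher in edgeR for both tested R-spondin genes, Rspo3 and Rspo2 (2.86, SE 0.66, adjusted p = 0.0303), for 1 of 5 WNT antagonists, Dkk2 (1.95, SE 0.30, adjusted p = 0.0016), and for 1 of 16 WNT receptors and targets, Fzd4 (1.45, SE 0.36, adjusted p = 0.0452). Of 6 BMP antagonists 2 were higher, among them Chrdl1, a chordin-like antagonist (111 against 1 UMI, ratio 37.1, counting interval 6.52 to 1477, adjusted p = 0.00111). Of 6 BMP ligands, Gdf6 was higher (121 against 2 UMIs, ratio 20.2, counting interval 5.47 to 169, adjusted p = 0.00156) and Bmp5 lower. None of 4 WNT ligands, 12 BMP receptors and targets or 4 PDGF genes passed in edgeR, with 1, 0 and 1 of them at an unadjusted p under 0.05. DESeq2 called 0 genes in any of these 8 pathway lists: it gave Dkk2 an adjusted p of 0.0854 and gave Rspo2, Fzd4, Chrdl1 and Gdf6 none. Of the markers of trophocytes, Cd81 was higher, at 93.7 and 233 CPM against 23.3 and 56.6 CPM (2.14, SE 0.28, adjusted p = 3.99e-04, and 0.0129 in DESeq2), and the other 8 tested did not pass. F3, on the list of telocyte markers (1.38, SE 0.32, adjusted p = 0.0303, 1 of 4 tested), and Cxcl13, a chemokine gene on the list of reticular fibroblast markers (1.64, SE 0.29, adjusted p = 0.0045, the 1 tested), were also higher in edgeR, and DESeq2 gave them 0.744 and 0.0607.

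Markers of other cells were uneven here too. The immune list summed to 37.6 and 93.3 CPM with Grem1 against 48.1 and 348 CPM without, and the plasma list to 3894 and 4485 CPM against 24991 and 1619 CPM. The fibroblast list summed to 85848 and 90934 CPM with Grem1 against 62542 and 43244 CPM without, and the telocyte list to 200.2 and 209 CPM against 202 and 409 CPM. The gate genes had medians of 646 and 427.5 UMIs a cell against 349 and 171. The part of these differences in the result was not tested.

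At matched depth the shares of cells with Rspo3 and Bmp5 ran in the same direction as the levels. They come from the same cells and are no second test, and those of Bmp5 rest on few cells. Rspo3 was found in 49 of 211 cells with Grem1 (23.2%) and 6 of 89 without (6.74%) in replicate 1, and in 16 of 104 (15.4%) and 1 of 37 (2.70%) in replicate 2. Bmp5 was found in 8 of 211 (3.79%) and 7 of 89 (7.87%) in replicate 1, and in 0 of 104, which by 3 counts allows a share of up to 2.88% (exact binomial upper end 3.48%), and 5 of 37 (13.5%) in replicate 2. Bmp4 was found in 103 of 211 (48.8%) and 53 of 89 (59.6%), and in 65 of 104 (62.5%) and 27 of 37 (73.0%). Cells with both Bmp4 and Grem1 were thus 103 of 300 and 65 of 141. The sign for Bmp4 depended on the cells: over all stromal cells as counted, Bmp4 was found in 37.8 and 28.4 percentage points more of the cells with Grem1, a gap of 8.42 and 3.99 points after thinning and of -10.7 and -10.5 points once cells with immune or plasma UMIs were left out. In those cells as counted, without thinning, the gap was 12.4 and 7.61 points. After thinning and without cells carrying immune or plasma UMIs, 17 of the 45 pairs among the 10 genes had a positive difference in both replicates. Of the others, 13 had a negative one in both and 15 opposite signs. Among these cells Rspo1 was found in only 4 and 2, Wnt5a in 21 and 3 and Bmp5 in 15 and 5. A pair of such sparse genes with no cell in common has a negative difference, so these signs show no exclusion.

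Shares were also taken by the number of Grem1 UMIs in the cell. In cells with 0, 1, 2 to 3, 4 to 7 and 8 or more Grem1 UMIs of 2000, Rspo3 was found in 6.74%, 19.0%, 29.3%, 20.3% and 24.3% in replicate 1 and in 2.70%, 11.1%, 19.0%, 12.5% and 18.2% in replicate 2. Cd34 was found in 74.2%, 83.3%, 94.8%, 83.8% and 73.0%, and in 43.2%, 77.8%, 90.5%, 93.8% and 84.8%. Bmp5 was found in 7.87% and 13.5% of the cells with 0 Grem1 UMIs, and in 0 of the 37 and 0 of the 33 cells with 8 or more, which by 3 counts allows shares of up to 8.11% and 9.09% (exact binomial upper ends 9.49% and 10.6%). Rspo3 was lowest in cells without Grem1 in both replicates, and no steady order is seen among the bins above 0. The bins held 18 to 89 cells, and the bin of 18 cells (1 UMI, replicate 2) is thin. Binned the other way, over all stromal cells thinned to 2000 UMIs, Grem1 was found in 48.1% and 59.0% of the cells with 0 Pdgfra UMIs and in 76.9% and 88.7% of those with 1. Without the cells carrying immune or plasma UMIs these shares were 64.8% and 64.3%, and 78.2% and 86.8%.

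**Figure D4:**
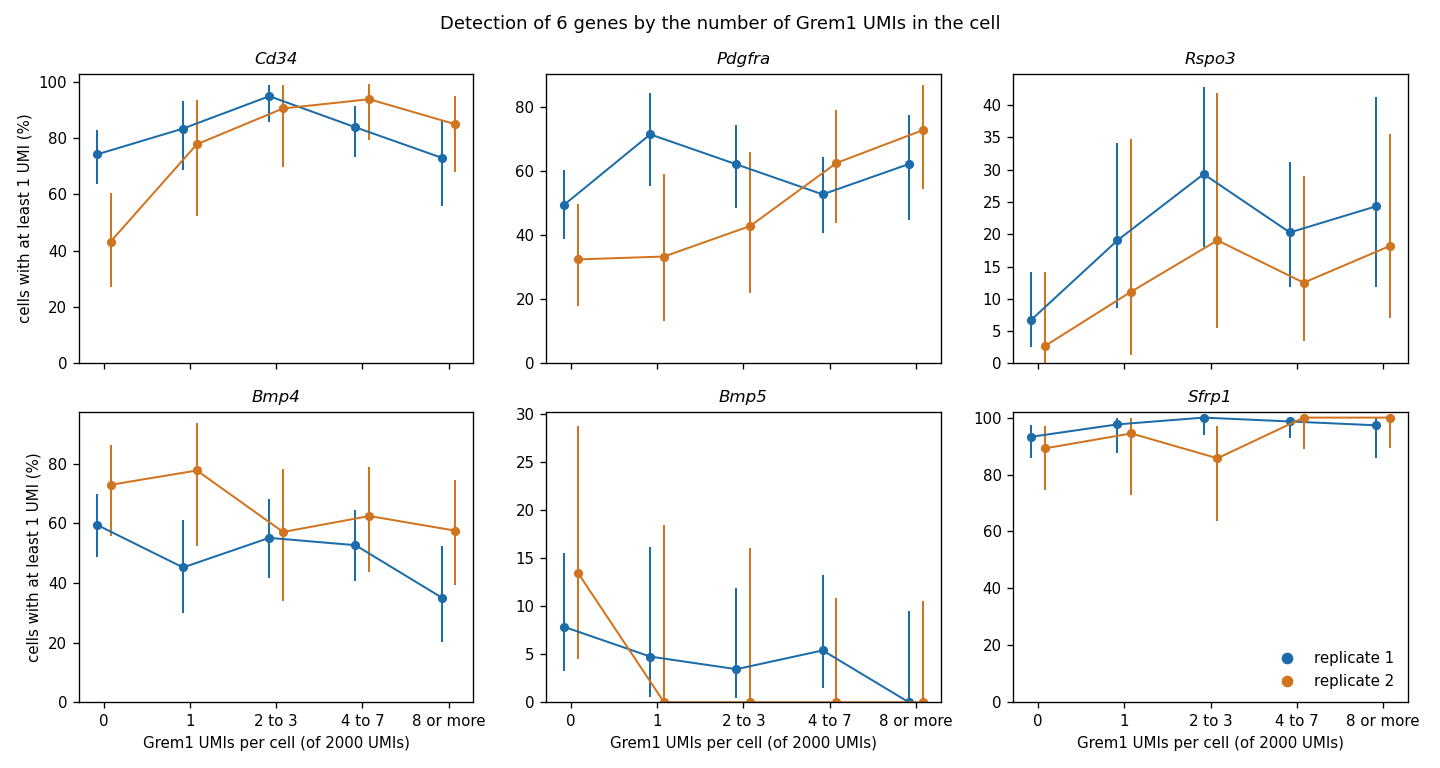
Share of stromal cells (percent, with exact binomial 95% intervals) with a UMI of 6 of the genes, by the number of Grem1 UMIs among 2000 UMIs of the cell, for each replicate, without cells carrying immune or plasma UMIs. Rspo3 steps up between 0 Grem1 UMIs (6.74% and 2.70%) and 2 to 3 (29.3% and 19.0%), and Bmp5 is highest at 0 (7.87% and 13.5%).

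Across the stromal cells of a replicate, the 10 genes formed no single block. The correlations are Pearson's r of log(1 + UMIs per 10000) over 414 and 294 cells that share a library and differ in depth and in UMIs from other cells, and they are given as a description. By the mean over the replicates, the highest values among the 45 pairs were those of Sfrp1 with Bmp4 (0.57 and 0.54), Sfrp1 with Cd34 (0.62 and 0.38) and Grem1 with Cd34 (0.46 and 0.55). Grem1 with Rspo3 gave 0.41 and 0.37. Bmp5 was apart from these, with 0.18 and 0.26 against Bmp4 and -0.08 and -0.27 against Grem1, the lowest mean of any pair.

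**Figure D5:**
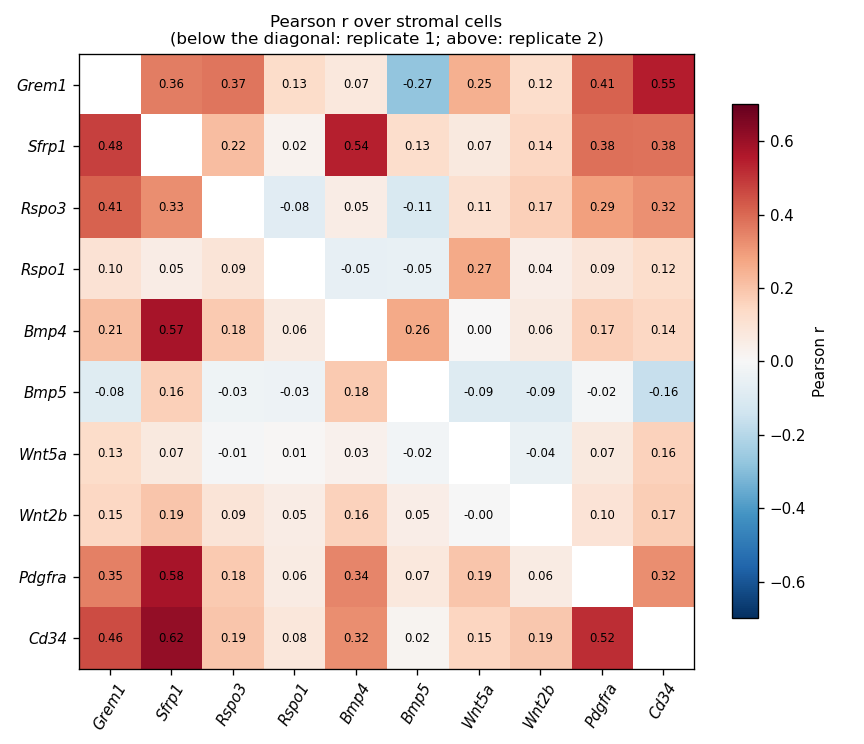
Pearson's r over stromal cells of replicate 1 (below the diagonal, 414 cells) and replicate 2 (above it, 294 cells) for each pair of the 10 genes, on a colour scale. Sfrp1 with Bmp4 (0.57 and 0.54) is among the highest pairs, and Bmp5 with Grem1 (-0.08 and -0.27) is the lowest on average.

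The genes whose pattern was most like each of the 10 were taken from 8640 genes by the mean r over the replicates. For Grem1 they were Lum (0.66), Fmo2 (0.66) and C3 (0.65), of which C3 is in the split. For Sfrp1 they were Serping1 (0.75), Bgn (0.74) and Igfbp7 (0.72), and for Bmp4 Bgn (0.59), Tmem176b (0.57) and Igfbp7 (0.57). Sfrp1 and Bmp4 thus had 2 of 3 in common. For Cd34 they were Fbln1 (0.76), Gsn (0.75) and Dcn (0.74), and for Pdgfra C1s1 (0.57), C1ra (0.56) and Col1a2 (0.54), where Dcn and Col1a2 are genes of the stromal gate. Rspo3 was most like Grem1 itself (0.39), then Lum (0.36) and Lgi2 (0.35). Bmp5 was most like Adamdec1 (0.35), Tnc (0.35) and Sept4 (0.32). Wnt5a, Wnt2b and Rspo1 had no gene above 0.25, too weak to describe in counts this sparse.

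The genes most like Grem1 and those most like Bmp5 were also described in the comparison by Grem1, which used cells from the same stromal set. Lum, Fmo2 and C3 were picked by their correlation with Grem1, so their direction was given in advance. The genes most like Bmp5 are not independent of these correlations either. The p-values below are therefore a description and no separate result. In DESeq2 only Adamdec1 of these 6 genes passed (adjusted p = 0.00417), and the other 5 ranged from 0.076 to 0.873. Fmo2 (1.64, adjusted p = 0.00508), C3 (1.49, adjusted p = 0.00665) and Lum (1.18, adjusted p = 0.0159) were higher in cells with Grem1 in edgeR. Adamdec1, a secreted metalloprotease gene, stood at 1693 and 1716 CPM with Grem1 against 3429.6 and 6673 CPM without (-1.36, SE 0.22, adjusted p = 0.00213). Tnc, which codes for the matrix protein tenascin C, stood at 162 and 179 CPM against 423 and 339.5 CPM (-1.06, SE 0.24, adjusted p = 0.0266). Sept4, a septin gene, stood at 90.6 and 56.3 CPM against 147 and 266 CPM (-1.21, SE 0.28, adjusted p = 0.0327). All 3 were lower in both replicates, as Bmp5 was.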

How the data were processed

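Single cells of 2 replicates were captured on the BD Rhapsody system with sample tags, per the labels' protocols. The deposited files hold UMI counts per cell and gene, not normalized, made by the authors with the BD WTA Multiplex Rhapsody pipeline 1.8 on GRCm38 with GENCODE vM19, per the file headers. HISAT2 2.0.5 and Bowtie2 are listed in the submitters' processing notes, with no role given. Only cells of the tag given for a sample were used. Multiplets (349 and 572) and undetermined cells (508 and 1128) and the 3 other tags of each capture were left out, and 0 columns of samples outside this series were used. Genes missing from one of the tables were left out, with 0.0343% and 0.0105% of the UMIs.

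Counts were summed per replicate and class and tested with edgeR 4.0.16 (R 4.3.3; TMM, filterByExpr, quasi-likelihood test, two-sided, Benjamini-Hochberg adjustment over all genes tested, threshold 0.05). The replicate was a block, because both classes of a replicate come from the same capture and tag. This leaves 1 residual degree of freedom. To it the test added prior degrees of freedom estimated from all genes. Their medians were 10.4 (split-high against split-low), 4.13 (stromal against other cells) and 16.2 (by Grem1). For split-high against split-low they were 176 without Scrublet doublets. They were infinite without immune or plasma UMIs, with the split at 2 UMIs and with no low-count filter. An infinite value leaves a gene no variance of its own in the test. By Grem1 they were 10.9 without Scrublet doublets and 8.56 with the gate of 20. The part of this in the calls was not tested. DESeq2 1.42.0 was an alternative. On simulated counts with 200 changed genes, the fit of split-high against split-low cells recovered 0% of 2-fold and 31% of 4-fold changes (9433 genes), the fit of stromal against other cells 33% and 100% (12538 genes), and the fit by Grem1 49% and 100% (7116 genes). The changed genes were drawn only from genes above a minimum mean level, with a common dispersion and no difference between replicates. Sparse genes such as Bmp5, Wnt5a, Wnt2b and Rspo1 lay below that level, so these shares do not cover them. Genes of a gate or split were left out of the counts of calls. Scrublet (scanpy 1.11.5) marked 41 and 5 cells, which were left out in an alternative only. Coordinates are from a GENCODE annotation of GRCm38.

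The genes, lists and tests were chosen with earlier results of these data known. The text names the 10 genes, at most 6 genes of a list (those with the smallest p) and the 3 genes most like each of the 10. The comparison by Grem1, its alternatives and the leaving out of cells with immune or plasma UMIs were added after seeing the data. Other alternatives changed the gate, the split, the filters, the depth, the scaling and the block. A few named items are not reported here.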

Additional observations from a re-analysis of the deposited data

How the results depend on the processing

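All 10 genes stayed higher in stromal than in other cells under the 5 alternatives. The replicate block mattered for every count of calls: with no replicate block, stromal against other cells gave 3155 genes in place of 5206, split-high against split-low 566 in place of 958, and the comparison by Grem1 0 in place of 118 (edgeR, 481 at an unadjusted p under 0.05), with 0 of the 10 genes higher and 0 lower there in place of 1 and 1. The count for split-high against split-low was 1548 with no filter on low counts, 580 with DESeq2, 126 with a gate of 20 UMIs, 1702 and 1479 with the split at 2 and 5 UMIs, 1476 without Scrublet doublets, 132 without cells with immune or plasma UMIs, 264 with cells thinned to 2000 UMIs (107 higher and 157 lower, against 678 and 280) and 0 of 1724 without cells of any other-type UMIs (204 at an unadjusted p under 0.05). Of the 10 genes, 6 were higher in the main analysis, 5 with DESeq2, 3 with the gate of 20, 2 without immune or plasma UMIs and 0 of 4 tested without any other-type UMIs (1 at an unadjusted p under 0.05). That last alternative also left out cells with at least 2 UMIs of endothelial, glial or mural genes, Rgs5 included. It kept only 45 of 343 and 40 of 263 split-high cells, and 11 of 71 and 7 of 31 split-low cells. Between the split classes Bmp4 lost its call with no block, with non-stromal cells in the fit, with the gate of 20 and after thinning, and Wnt2b gained one with no filter, with the split at 5 and without Scrublet doublets.

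The count by Grem1 was 226 with no filter, 18 with DESeq2, 310 with all stromal cells, 308 in cells chosen by C3, Ogn, Ackr4 and Col14a1, 40 with the gate of 20 and 65 without Scrublet doublets. Rspo3 lost its call with no block, DESeq2, the gate of 20 and Scrublet, which left 0 genes higher, and Bmp5 with no block, DESeq2, all stromal cells and the gate of 20, which left 0 lower. Their adjusted p-values ranged from 6.2e-05 to 0.365 and from 5.84e-05 to 0.0859. Leaving out a replicate gave Rspo3 0.94 and 1.99 and Bmp5 -1.82 and -2.68, with no test possible.

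Signs turned for Bmp5 between the stromal classes (-1.35 with the gate of 20, -1.44 without immune or plasma UMIs), for Bmp4 there (-0.0147 and -0.0555 without any other-type and without immune or plasma UMIs), for Bmp4 by Grem1 with all stromal cells (0.058), and by Grem1 when 1 replicate was left out, which gave -0.0599 and 3.80 for Wnt5a, -0.15 and 0.74 for Pdgfra and -0.0944 and 1.43 for Cd34, the negative values without replicate 2. The difference in Bmp4 detection with Grem1 turned to -10.7 and -10.5 points without immune or plasma UMIs. The cause was not tested. Of the values for single genes and shares, 231 kept their direction and side of the threshold, 28 moved, 22 lost a call, 3 gained one and 10 turned sign. At this depth Rspo1 and the WNT ligands rest on few UMIs, as do Grem1, Rspo3, Bmp5 and Pdgfra in split-low cells.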
